A study of Mus musculus with 2 samples.

Results

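Macrophages and dendritic cells were examined in back skin and in the preputial gland (PG), a pair of large sebaceous-type glands beside the genital opening of the mouse. Cells were chosen by their own expression. Of the barcodes with at least 500 genes, at least 1000 UMIs (unique molecular identifiers, which count captured transcripts) and at most 10% mitochondrial UMIs, those were kept that held at least 1 *Tyrobp* UMI, at least 10 UMIs of *Lyz2* and *Cd74* together per 10000, no UMI of *Cd3d*, *Cd3e* or *Cd3g*, and fewer than 20 UMIs of *Krt5* and *Krt14* together per 10000. This gave 384 cells of 13598, 193 of 8899 in skin and 191 of 4699 in PG. The members were then divided into cells with at least 1 *Cd207* UMI and cells without one.

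Both tissues came from 3 male wild type C57BL/6 mice, 52 weeks old, for which no treatment is given, and each was sequenced as 1 droplet library of transcript 3′ ends. The skin library held 37675226 UMIs and the PG library 26288071. Since the mice were pooled, there was 1 sample per tissue and no spread between animals could be measured. No test was made, the 95% intervals describe counting error alone and are exact, and tissue cannot be told apart from the library, its dissociation and its sequencing. The libraries shared 0 of the barcodes that passed the filters.

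Macrophages take up debris and microbes and keep a large lysosomal machinery, and tissue macrophages secrete the C1q complement protein. Dendritic cells present antigen to T cells on MHC class II molecules. Langerhans cells live in the epidermis, make the lectin langerin (*Cd207*) and carry the adhesion protein encoded by *Epcam*.

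Members made up 2.17% of the skin cells (95% binomial interval, Clopper-Pearson, 1.88 to 2.49) and 4.06% of the PG cells (3.52 to 4.67). With at least 1000 genes and 2000 UMIs the shares were 1.33% (61 of 4574 cells) and 1.79% (51 of 2851). They were of similar depth, with a median of 2058 UMIs in skin and 1970 in PG. The rule fixed these cells by *Tyrobp*, an adaptor of immune receptors, *Lyz2*, a lysozyme of macrophages, and *Cd74*, the MHC class II chaperone, so their levels are a description. Near the limit on *Lyz2* and *Cd74*, the closest skin member held 12.4 per 10000 and the closest barcode left out 8.40, against 13.3 and 8.38 in PG. Near the keratin limit the values were 13.7 and 23.4 in skin, and 19.4 and 23.0 in PG. In skin 20 barcodes failed only the keratin limit, 8 of them with *Cd207*, and 12 failed only this limit in PG, 0 of them with *Cd207*.

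*Cd207*-positive cells numbered 51 in skin, 26.4% of its members (20.4 to 33.2), and 19 in PG, 9.95% of its members (6.10 to 15.1). The skin cells held between 1 and 51 *Cd207* UMIs with a median of 4, whereas the PG cells held 1 to 5 with a median of 1, and 11 of the 19 held a single UMI. After every cell was thinned to 1000 UMIs, 23.3% of the skin members and 6.28% of the PG members kept a *Cd207* UMI, against 1.02% of skin T cells and 0 of 57 PG T cells, which should lack the gene and had median depths of 1438 and 1947 UMIs. The *Cd207* level, in UMIs per 1000000 UMIs summed over the group (CPM), was 2374 in the skin cells and 655 in the PG cells. Outside the members, 36 skin cells held 105 *Cd207* UMIs, while 0 of 4508 other PG cells held one, which allows a share of up to 0.0665% when 3 counts of the total are taken as the limit.

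The skin cells held the markers of Langerhans cells, and the markers of the PG cells went against that name. *C1qa*, *C1qb* and *C1qc*, which encode the chains of C1q and took no part in the choice of cells, gave at least 2 UMIs together in 19 of 19 *Cd207*-positive PG cells (82.4% to 100% by the binomial interval) and in 5 of 51 in skin (9.80%, 3.26 to 21.4). The PG cells held 3 to 73 C1q UMIs with a median of 30. The skin cells held 0 to 18 with a median of 0. Since all 19 PG cells were C1q-positive, so was each of the 8 with 2 or more *Cd207* UMIs, compared with 3 of 46 such skin cells. *Epcam* gave a UMI in 46 of 51 skin cells and 1 of 19 PG cells. *Mfge8*, which encodes a secreted protein that bridges dying cells to phagocytes, did so in 41 of 51 and 5 of 19, and *H2-M2*, a nonclassical MHC class I gene, in 45 of 51 and 8 of 19. Over thinned cells the shares in *Cd207*-positive skin cells, *Cd207*-positive PG cells, skin T cells and PG T cells were 58.8%, 5.26%, 9.18% and 5.26% for *Epcam*, so the PG share was that of the T cells. They were 56.9%, 21.1%, 2.04% and 1.75% for *Mfge8*, 64.7%, 31.6%, 0% and 0% for *H2-M2*, and 21.6%, 78.9%, 0% and 5.26% for *C1qa*. The *Cd207*-positive PG cells are therefore named here by *Cd207* and C1q alone.

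**Figure D1:**
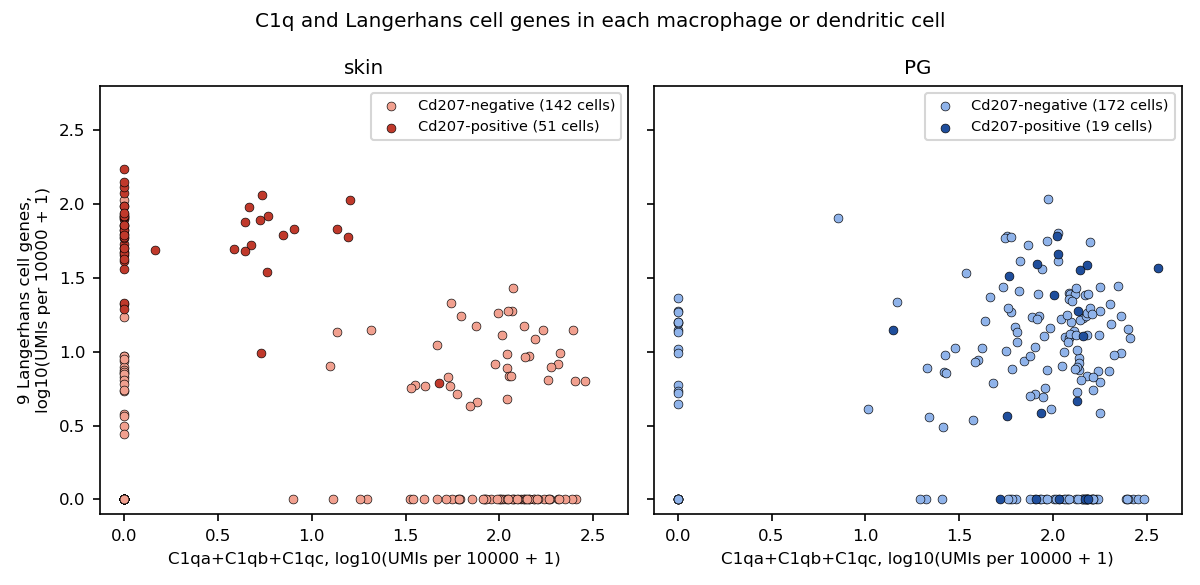
Each point is 1 member of skin (left) or PG (right). The horizontal axis gives the UMIs of *C1qa*, *C1qb* and *C1qc* together and the vertical axis those of 9 Langerhans cell genes without *Cd207*, both as log10(UMIs per 10000 + 1). The 51 dark skin points lie mostly at the upper left and the 19 dark PG points lie at the right among the *Cd207*-negative cells.

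Levels summed over cells showed the same division. *C1qb* stood at 46.8 CPM in *Cd207*-positive and 1757 CPM in *Cd207*-negative skin cells, and at 4461 and 3778 CPM in the corresponding PG cells. *Epcam* stood at 1144 CPM (979 to 1329) in the *Cd207*-positive skin cells and at 40.6, 17.7 and 33.8 CPM in *Cd207*-negative skin, *Cd207*-positive PG and *Cd207*-negative PG cells. The lysosomal membrane gene *Cd68* was at 60.2 CPM in *Cd207*-positive skin cells and at 381 to 403 CPM in the other 3 groups. By contrast *Mrc1*, the mannose receptor of resident macrophages, was low in both *Cd207*-positive groups, at 26.8 CPM in skin and 53.1 CPM in PG, against 964 and 549 CPM in the *Cd207*-negative cells. *Cd163* and *Folr2*, a haemoglobin scavenger receptor and a folate receptor of resident macrophages, had 0 UMIs in both *Cd207*-positive groups. *Il1r2*, the decoy receptor for interleukin 1, was at 460 CPM (301 to 674) in the *Cd207*-positive cells of PG and 548 CPM (436 to 681) in those of skin, and the intervals overlapped. *Itgax*, which encodes the integrin CD11c, was at 372 CPM in the *Cd207*-positive PG cells and 53.5 CPM in those of skin.

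**Figure D2:**
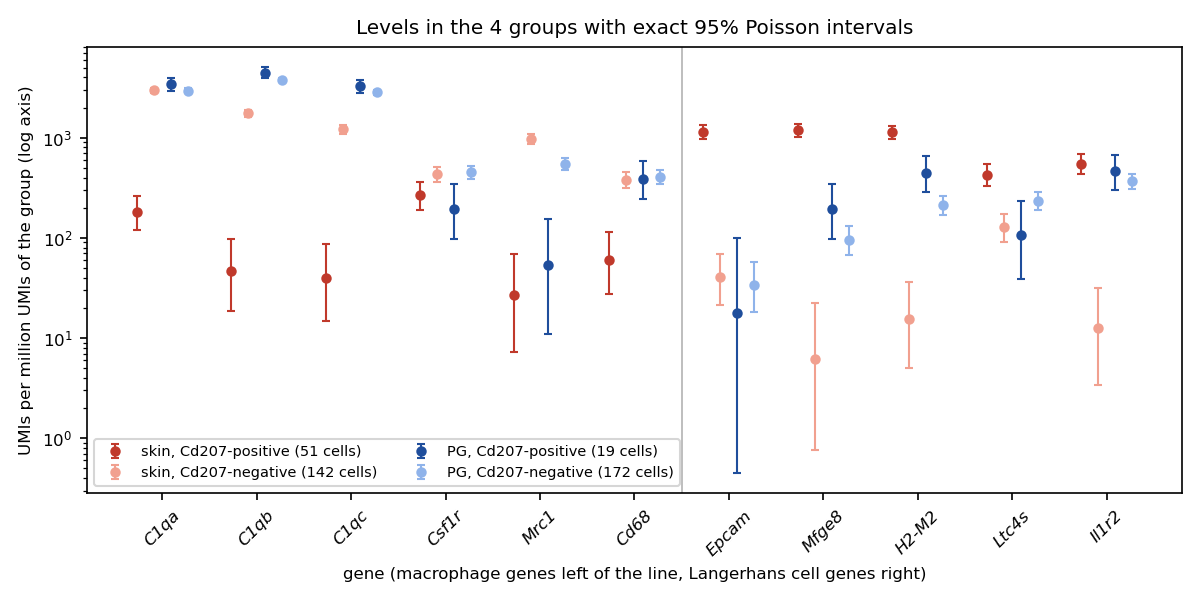
Levels of 6 macrophage genes (left of the line) and 5 Langerhans cell genes (right) in the 4 groups, in CPM on a log axis, with exact 95% Poisson intervals. *C1qa*, *C1qb* and *C1qc* are low only in *Cd207*-positive skin cells among the 4 groups, and *Epcam* is high only there.

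Within skin, *Cd207*-positive cells were set against *Cd207*-negative cells over the 1636 genes with at least 100 CPM in either group. Of these, 385 (23.5%) were at least 2-fold higher and 302 (18.5%) at least 2-fold lower in the *Cd207*-positive cells, with a median log2 ratio of 0.28. A gene entered through either group, so one that reached 100 CPM only where it is high had to differ, here and between the tissues, and counts over a list are a description. The 9 Langerhans cell genes other than *Cd207* were all at least 2-fold higher, among them *Mfge8* (1184 against 6.24 CPM) and *H2-M2* (1137 against 15.6 CPM). Among genes of no list, *H2-M5*, another nonclassical MHC gene, stood at 314 against 3.12 CPM, and *Cacna1e*, a calcium channel subunit, at 254 against 6.24 CPM. The lower levels came from 1 and 2 UMIs. With at least 1000 genes and 2000 UMIs the log2 ratios fell from 6.65 to 3.31 and from 5.35 to 2.76. *Tnf*, which encodes the cytokine tumour necrosis factor, was at 615 CPM in *Cd207*-positive and 71.8 CPM in *Cd207*-negative skin cells, while *Il1b* went the other way with 20.1 against 250 CPM.

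Macrophage gene lists were also counted within skin, as a description, since for example *Cd163* and *Folr2* entered only through the *Cd207*-negative cells. Of all genes tested, 18.5% were at least 2-fold lower and 23.5% at least 2-fold higher in the *Cd207*-positive skin cells. Of 13 macrophage markers tested, 11 were at least 2-fold lower and 0 higher, with a median log2 ratio of -4.04. Complement genes were lower in 8 of 8, genes of iron and haem handling in 5 of 5 and interferon response genes in 6 of 6. Of 15 lysosomal genes, 14 were lower, among them the cathepsin gene *Ctsd* with 60.2 against 621 CPM. Chemokine genes were lower in 12 of 14, and the exception above 2-fold was *Cxcl16* with 194 against 71.8 CPM. The MHC class II list had 5 of 9 genes at least 2-fold higher and 0 lower, against 23.5% and 18.5% of all genes. This count is a description too, since *H2-DMb2* and *Ciita*, both among the 5, entered only through the *Cd207*-positive cells. Among the higher ones was *H2-DMa*, whose product loads peptides, with 1124 against 371 CPM. Among the 10 lowest ratios were those of *Crip1*, a LIM domain protein gene, with 60.2 against 4490 CPM (log2 ratio -6.22), and *Srgn*, the proteoglycan core of granules, with 1 UMI (6.69 CPM) against 655 CPM (-6.61, -11.92 to -4.12). Their order depends on single UMIs, since *Srgn* came to -5.03 when groups with 1 or 2 UMIs were set at 3 UMIs like those with none, while *Crip1* did not move.

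RNA of keratinocytes moved with the *Cd207*-positive skin cells. All 9 keratinocyte genes tested were at least 2-fold higher in them, against 23.5% of all genes. The summed level of the 10 genes on that list was 15611 CPM in *Cd207*-positive and 3954 CPM in *Cd207*-negative skin cells, with *Krtdap* the most abundant in the former at 4448 CPM, against 28394 CPM in all other skin cells and 17269 CPM in barcodes of at most 100 UMIs, which hold free RNA. These are sums over the group, and the RNA was uneven between cells. In a cluster of 52 skin members, 48 of them *Cd207*-positive, *Krtdap* was at 4949 CPM with UMIs in 28.8% of cells. The deepest *Cd207*-positive skin cell held 21600 of the group's 149511 UMIs, against a median of 2230. *Cst6*, which ranked second among the higher genes, was at 7531 CPM in *Cd207*-positive skin cells and 3041 CPM in the other skin cells. After thinning, 17.6% of the *Cd207*-positive cells and 16.3% of skin T cells held a UMI of it, and its log2 ratio of 6.91 came to 1.73 over thinned cells and 3.98 without predicted doublets. *Epcam* was also present in the other skin cells, at 305 CPM. *Mfge8* and *H2-M2* were at 26.8 and 3.12 CPM there. Without the cells richest in RNA of other types, the log2 ratio of *Mfge8* was 7.80 and that of *Cst6* 3.68. The share of free RNA, estimated by counting all keratinocyte, sebocyte and fibroblast list UMIs in the members as free RNA, was 84.5% in *Cd207*-positive and 21.8% in *Cd207*-negative skin cells. It is an upper estimate where a cell makes such RNA itself or was captured with another cell. Subtracting it gave 828 genes higher and 556 lower in place of 385 and 302. In PG the keratinocyte list summed to 797 CPM in *Cd207*-positive and 1201 CPM in *Cd207*-negative cells.

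**Figure D3:**
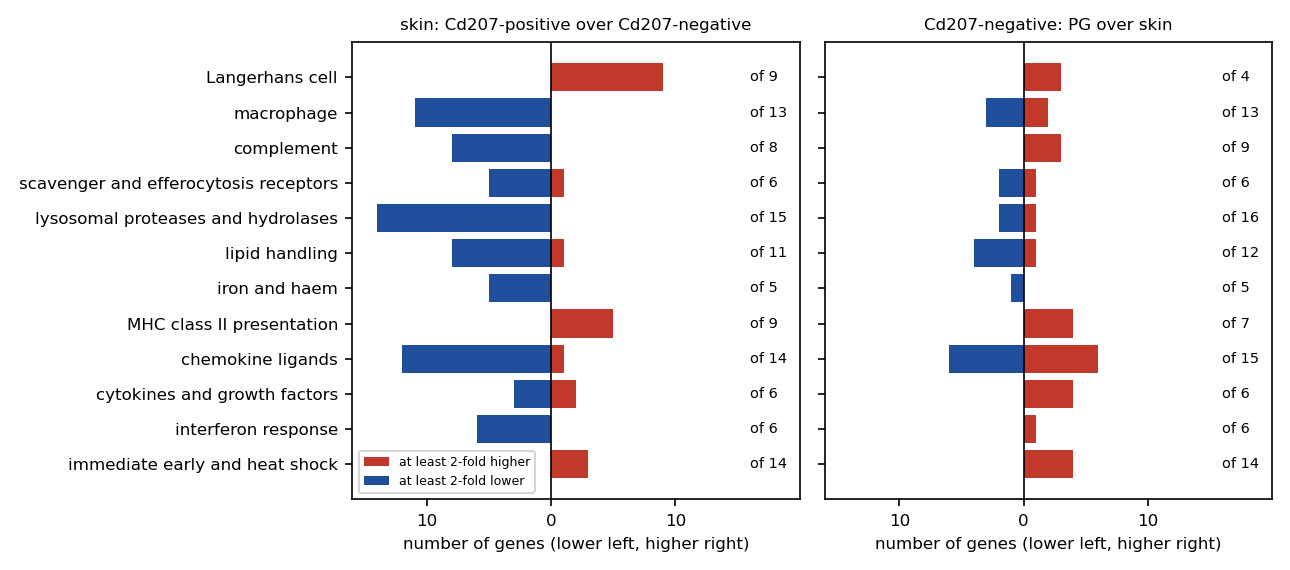
Number of genes of each list at least 2-fold lower (bars to the left) or higher (to the right) in *Cd207*-positive over *Cd207*-negative skin cells and in PG over skin *Cd207*-negative cells, with the number tested at the right. The macrophage, complement and lysosomal bars point left in the first comparison (11 of 13, 8 of 8 and 14 of 15, against 18.5% of all genes). In the second the MHC class II bar points right (4 of 7, against 16.2% of all genes). The counts are a description, and nothing is read from the cytokine bar.

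The *Cd207*-negative cells, 142 in skin and 172 in PG, were compared between the tissues. C1q-positive cells made up 62.7% (54.2 to 70.6) of them in skin and 87.2% (81.3 to 91.8) in PG, so the groups differed in makeup. Of 1334 genes tested, 216 (16.2%) were at least 2-fold higher and 253 (19.0%) at least 2-fold lower there, and the median log2 ratio over all of them was -0.16. Scaled without mitochondrial, ribosomal and rule genes, 330 were higher and 278 lower, which turned the balance. The 10 highest ratios included *Zmynd15* (458 against 9.36 CPM, log2 ratio 5.61), *Axl*, a receptor for dying cells (208 against 6.24 CPM), and *Il1r2* (367 against 12.5 CPM). *Axl* had 2 UMIs in skin, and its log2 ratio of 5.06 came to 2.89 over thinned cells. *Mmp13*, a collagenase, was at 161 against 3.12 CPM, from 1 UMI in skin (log2 ratio 5.69, 3.16 to 11.02, or 4.11 with that UMI set at 3), and its ratio was 3.32 in fibroblasts. *Itgax* followed with 208 against 12.5 CPM, and *Sgk1*, a salt-responsive kinase gene, with 315 against 18.7 CPM (log2 ratio 4.07, and 1.42 in fibroblasts). The lowest were *Ifi27l2a*, an interferon-induced gene (294 against 3823 CPM, log2 ratio -3.70, -3.99 to -3.42), and *Lyz1*, a second lysozyme gene (26.0 against 331 CPM). Lectin genes of the *Cd209* family were also among the 10 lowest, with *Cd209g* at 23.4 against 193 CPM, *Cd209d* at 46.8 against 343 CPM and *Cd209f* at 112 against 758 CPM, and *Maf*, a transcription factor of resident macrophages, was at 80.6 against 490 CPM. Near-identical copies exist in the *Cd209* and lysozyme families, so the split of reads among them is uncertain.

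Of 7 MHC class II genes tested, 4 were at least 2-fold higher in PG and 0 lower, against 16.2% and 19.0% of all genes. Their median log2 ratio was 1.30. *H2-Aa*, one of the class II chains, was at 12196 CPM in PG and 4072 in skin, and *H2-Eb1* at 9911 and 4016 CPM. The cathepsin gene *Ctss*, whose product trims the class II chaperone, was at 1937 and 471 CPM. *H2-Ab1* came to 6404 and 4019 CPM, short of 2-fold. Among C1q-positive cells alone, 7 of 7 were at least 2-fold higher in PG, with a median of 2.08. Over all 1425 genes tested in those cells 16.9% were higher and 24.4% lower, with a median of -0.27. Other cells of the same libraries, in which class II UMIs were few, went both ways. The log2 ratio of *H2-Aa* was 1.58 (1.49 to 1.67) in the *Cd207*-negative members, -1.52 (-2.20 to -0.88) in T cells and 0.48 (-1.06 to 1.86) in fibroblasts. Fibroblasts gave 1.09 (-0.24 to 2.37) for *H2-Eb1*, from 14 UMIs in skin and 10 in PG, and 1.91 (1.33 to 2.49) for *Ifi30*, a class II pathway reductase that was also among the 4. Relative to fibroblasts the members' log2 ratio came to 1.10 for *H2-Aa*, to 0.21 for *H2-Eb1*, no longer 2-fold, and to -0.12 for *H2-Ab1*, whose sign turned. *Cd74* was used to choose the cells and is given as a description, with 28396 CPM in PG and 8135 in skin.

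The start regions of *H2-Aa* and *H2-Eb1* share a letter pattern that class II promoters are known for, the Y box, and are shown for this reason beside that of the chemokine gene *Cxcl2*, which holds a kappaB pattern. Each run is the 150 bases before the start of the gene, 5′ to 3′ on the strand of the gene, from RefSeq promoters of build GRCm38.p6. Capitals mark CTGATTGG in the first and second and overlapping matches of the kappaB pattern in the third.
H2-Aa (chr17:34287824-34287973, minus strand): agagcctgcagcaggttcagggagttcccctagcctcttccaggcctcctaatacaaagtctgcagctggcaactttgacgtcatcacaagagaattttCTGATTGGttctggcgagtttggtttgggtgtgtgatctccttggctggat
H2-Eb1 (chr17:34305717-34305866, plus strand): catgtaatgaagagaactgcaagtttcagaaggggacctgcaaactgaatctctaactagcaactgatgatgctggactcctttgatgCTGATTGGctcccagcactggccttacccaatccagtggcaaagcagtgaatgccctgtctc
Cxcl2 (chr5:90903749-90903898, plus strand): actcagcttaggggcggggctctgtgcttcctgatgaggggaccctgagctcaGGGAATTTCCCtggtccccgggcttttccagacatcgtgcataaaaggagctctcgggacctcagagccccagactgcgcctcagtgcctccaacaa
The Y box match lay near the start in both class II genes, beginning 51 bases before it in *H2-Aa* and 62 bases in *H2-Eb1*. Within the 250 bases before the start, searched on both strands, CTGATTGG occurred in 4.43% of 27025 genes and in 3 of 9 listed class II genes with a sequence. The kappaB pattern occurred in 1.36% of genes and in 4 of 13 listed chemokine genes, among them *Cxcl2* and *Cxcl10*. These are matches of letters only.

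Cytokine genes of the interleukin 1 and tumour necrosis factor type were abundant in PG. Of 15 cytokine and growth factor genes listed, 6 reached 100 CPM in either tissue, and 4 of those were at least 2-fold higher in *Cd207*-negative PG cells (16.2% of all genes tested). Since *Il1a*, *Tnf* and *Vegfa* reached it in PG alone, nothing is read from that count. Among C1q-positive cells alone the same 4 of 7 were higher (16.9% of all genes), and *Il10* and *Igf1* were at least 2-fold lower (24.4% of all genes). *Il1b* was at 2519 CPM in PG and 250 in skin (log2 ratio 3.34, 3.01 to 3.68), *Tnf* at 611 and 71.8 CPM, *Il1a* at 229 and 12.5 CPM, and *Vegfa*, a growth factor of blood vessels, at 377 and 25 CPM. After thinning, *Il1b* was seen in 45.9% of the PG and 9.15% of the skin cells, compared with 1.75% of PG and 1.02% of skin T cells. In T cells *Il1b* rested on 2 and 6 UMIs, and *Tnf* was at 53.7 CPM in PG and 80.7 in skin. *Ifnb1*, which encodes interferon beta, was at 343 CPM in PG and 46.8 in skin.

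Chemokine genes divided into both directions, with 6 of 15 at least 2-fold higher in PG, 6 at least 2-fold lower and a median log2 ratio of 0.83, against 16.2% and 19.0% of all genes. The higher ones included *Ccl3* (1334 against 206 CPM), *Ccl4* (7280 against 2216 CPM) and *Cxcl2* (7605 against 3561 CPM), ligands that draw monocytes or neutrophils. With at least 1000 genes and 2000 UMIs the log2 ratio was 2.07 for *Ccl3* and 0.84 for both *Ccl4* and *Cxcl2*, below 2-fold. The lower ones included *Ccl8* (2202 against 10379 CPM), *Ccl6* (481 against 1629 CPM) and *Pf4* (1152 against 2503 CPM), which resident macrophages are known to express. *Pf4*, with a log2 ratio of -1.12, fell short of 2-fold with at least 200 genes and 500 UMIs (-0.63) and over thinned cells (-0.96). In fibroblasts of the same libraries 3 of 5 chemokine genes tested, *Ccl2*, *Ccl7* and *Cxcl1*, were at least 2-fold higher in PG, with a median of 1.55, against 12.0% higher and 7.83% lower of the 1596 genes tested in fibroblasts. The log2 ratio of *Cxcl2* was -0.33 in fibroblasts and 1.09 in the *Cd207*-negative members. That of *Ccl4* was 1.16 in fibroblasts (-1.61 to 3.73, from 4 and 3 UMIs) and 1.72 in the members, which leaves 0.55 relative to fibroblasts. Among C1q-positive cells alone that of *Cxcl2* was 0.50, below 2-fold, and the median of the chemokine list was -0.28. Of 14 immediate early and heat shock genes, which rise during tissue dissociation, 4 were at least 2-fold higher in *Cd207*-negative PG cells (16.2% of all genes), with a median of 0.63, and 2 were in fibroblasts, with a median of 0.53. Among C1q-positive cells alone 6 of 14 were (16.9% of all genes in that comparison), with a median of 0.86. *Fos* was at 1381 CPM in PG and 605 in skin *Cd207*-negative cells, and at 621 and 711 CPM in fibroblasts. The part of handling in the cytokine and chemokine levels was not tested.

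**Figure D4:**
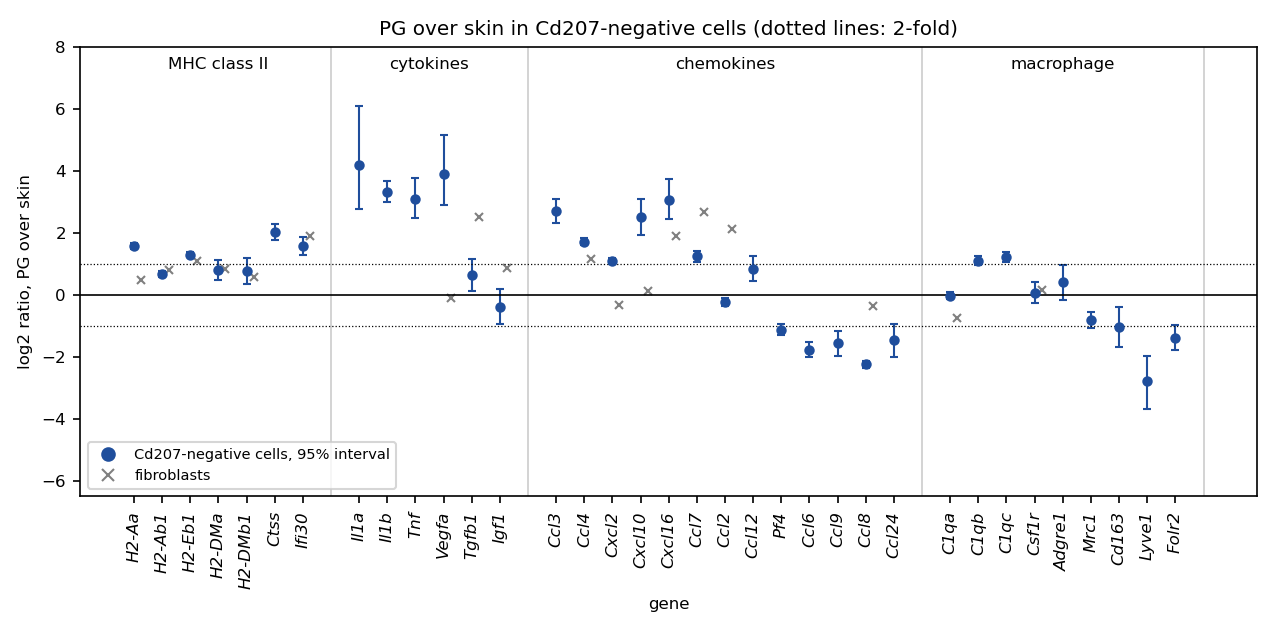
log2 ratio of PG over skin in *Cd207*-negative cells for MHC class II, cytokine, chemokine and macrophage genes, with exact 95% intervals for counting error. Crosses give the same ratio in fibroblasts where it could be computed and dotted lines mark 2-fold. *Il1b* lies at 3.34 and *Ccl8* at -2.24.

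The macrophage list as a whole stayed near the shares over all genes (16.2% higher and 19.0% lower). Of 13 macrophage markers, *C1qb* and *C1qc* were at least 2-fold higher in PG and *Cd163*, *Lyve1* and *Folr2* at least 2-fold lower, with a median log2 ratio of 0.08. The log2 ratio of *Cd163* was -1.03 (-1.69 to -0.40) and fell short of 2-fold in several alternatives, the closest to 0 being -0.58 with at least 200 genes and 500 UMIs. That of *C1qb* was 1.10 and fell short over thinned cells (0.93). *C1qa* was at 2935 CPM in PG and 2971 in skin. *Lyve1*, a hyaluronan receptor, was at 39.0 against 268 CPM. Among C1q-positive cells alone 0 of 14 macrophage markers were at least 2-fold higher and 4 lower, near the 24.4% over all genes, with a median of -0.45. Monocyte genes were lower in PG in 3 of 4, with *Plac8* at 78.0 against 321 CPM and the chemokine receptor *Ccr2* at 31.2 against 131 CPM, and *Cx3cr1*, the fractalkine receptor, was higher with 114 against 28.1 CPM. Nothing is read from that count, since *Plac8* and *Ccr2* reached 100 CPM in skin alone and *Cx3cr1* in PG alone. The monocyte list summed to 359 CPM in PG and 970 in skin, but to 257 and 232 CPM among C1q-positive cells alone, where *Cx3cr1* was the only one of its genes tested. Type 2 dendritic cell markers were lower in 3 of 7, with the lectin *Clec10a* at 159 against 540 CPM. Of 4 Langerhans cell genes tested, 3 were at least 2-fold higher in PG (*H2-M2*, *Il1r2* and *Tnfaip2*) and 0 lower. Nothing is read from this count either, since *H2-M2* and *Il1r2* reached 100 CPM in PG alone.

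Within PG the *Cd207*-positive cells were close to the *Cd207*-negative ones in C1q and differed from them in other genes. With 19 cells the PG group was under the 20 set for a count of genes, so levels of single genes are given. *Ccl8* (2202 CPM), *Ccl7* (2761 CPM) and *Retnla* (1529 CPM), all high in *Cd207*-negative PG cells, had 0 UMIs in the 56486 of the *Cd207*-positive cells. The levels of the *Cd207*-negative cells were uneven, as *Ccl8* was at 0 to 106 CPM and *Retnla* at 0 to 211 CPM in the 3 largest clusters of PG members. *Ccl7* was at 24447 CPM in a cluster of 23 cells, which held 0 *Cd207*-positive cells, and at 447 CPM in the other PG members. *Vegfa* was at 1098 against 377 CPM, *Zmynd15* at 814 against 458 CPM and *H2-M2* at 443 against 213 CPM. *Ccl4* and *Cxcl2* had log2 ratios of *Cd207*-positive over *Cd207*-negative cells of -5.56 and -1.87 in skin and 0.15 and 0.36 in PG, and *Il1b* of -3.64 and 0.67. *Srgn* stood at 6.69 against 655 CPM in skin and 2496 against 1659 CPM in PG.

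Clustering each library's members on its own gave 4 clusters in skin and 6 in PG, as a description since every gene was used. In skin, a cluster of 58 cells was monocyte-like (*Ly6c2*, *Ccr2*, *Plac8*, *Fn1*) and one of 48 cells macrophage-like, with *Ccl8* at 30585 CPM and *Mrc1* at 2091 CPM. The 58 cells also held dendritic cell genes. *Cd209a* was at 257 against 87.9 CPM in the other skin members and *Batf3* at 132 against 28.3 CPM, in 29.3% and 27.6% of the cells. *Ccr7* and *Ccl22* were at 185 against 6.28 CPM and 409 against 3.14 CPM, in 5.17% and 3.45% of the cells. *Clec10a* went the other way, with 66.0 against 515 CPM. A cluster of 52 cells held 48 of the 51 *Cd207*-positive cells together with 9 keratinocyte markers and was left with its number, as was one of 35 cells led by *Rsad2* and *Ifit1*, interferon-induced genes. In PG, clusters of 29 and 23 cells carried 8 and 5 macrophage markers, with *Mrc1* at 2893 and 1804 CPM and *Ccl8* at 11291 and 8852 CPM, and held 0 *Cd207*-positive cells. Type 2 dendritic cell markers were also carried by both, *Clec10a*, *Sirpa* and *Cd300a* by the larger and *Cd209a*, *Clec10a* and *Itgam* by the smaller. The smaller was led by *Ednrb* and the interferon-induced genes *Ifit1* and *Rsad2*. Clusters of 44, 44 and 39 cells, left without a name, held 6, 3 and 9 of the 19 *Cd207*-positive cells. In these 3, *Mrc1* was between 26.8 and 117 CPM, *Il1b* between 1822 and 5269 CPM, and *C1qa* between 2570 and 3918 CPM. *C1qa* had UMIs in 56.8% of the cells of the cluster with 3 *Cd207*-positive cells, against 100% and 94.9% in the others. That cluster was led by *Wdfy4*, a listed type 1 dendritic cell marker, at 210 against 2.81 CPM in the other PG members. The cluster of 39 cells, with 9 *Cd207*-positive cells, was also led by the fibroblast genes *Dcn* and *Col1a2*. It carried the Langerhans cell markers *Cd207*, *H2-M2* (557 against 145 CPM in the other PG members) and *Il1r2* as well. The last PG cluster of 12 cells, at a median of 3990 UMIs, carried 7 keratinocyte and 3 sebocyte markers.

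**Figure D5:**
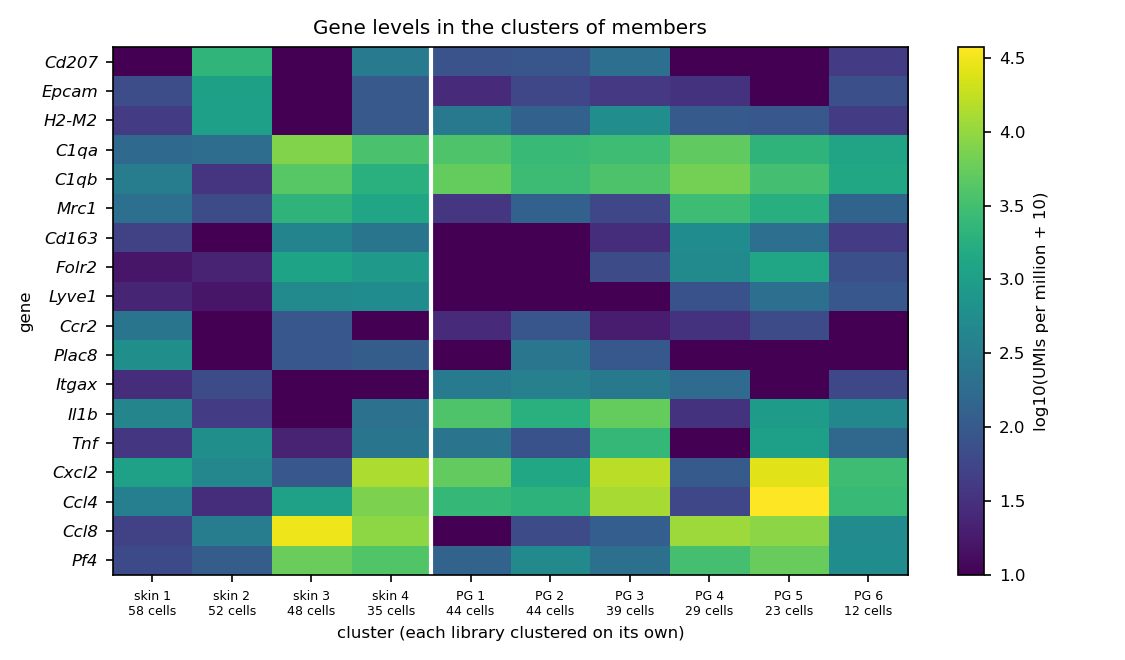
Level of 18 genes, as log10(CPM + 10), in the 4 skin and 6 PG clusters of members. *C1qa* is at 7761 and 3469 CPM in skin clusters 3 and 4, at 158 and 179 CPM in skin clusters 1 and 2, and between 1198 and 4940 CPM in all 6 PG clusters, whereas among the PG clusters *Mrc1*, *Ccl8* and *Pf4* are highest in 4 and 5, and *Ccl8* and *Pf4* are higher still in skin cluster 3.

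Lists of T cell, B cell and neutrophil markers each summed to at most 178 CPM in the members. In skin the neutrophil list summed to 140 CPM in *Cd207*-positive and 87.4 CPM in *Cd207*-negative cells, against 16.9 CPM in other cells. B cell genes summed to 46.8 and 178 CPM there, against 113 CPM, and T cell genes to 73.6 and 49.9 CPM, against 135.5 CPM. In the *Cd207*-positive PG cells 0 of 9 T cell and 0 of 7 neutrophil markers had a UMI. In the *Cd207*-negative PG cells, 2 of 9 T cell markers did. The neutrophil list summed to 135 CPM in them, led by *Mmp9* at 120 CPM, against 64.3 CPM in other PG cells. B cell genes summed to 140 CPM, with *Ighm* the most abundant, against 201 CPM in other PG cells. Genes of keratinocytes, fibroblasts and sebocytes moved with tissue. Of 8 keratinocyte genes tested, 6 were at least 2-fold lower in PG (median log2 ratio -2.58), against 19.0% of all genes, and the list summed to 1201 CPM in PG and 3954 in skin *Cd207*-negative cells. The fibroblast list summed to 1092 CPM in PG and 71.8 CPM in skin *Cd207*-negative cells, with *Dcn* at 520 CPM in PG, against 2321 CPM in other PG cells and 970 CPM in PG free RNA. The sebocyte list summed to 876 CPM in PG and 178 in skin, with *Elovl3* at 0 in both. The estimated share of free RNA was 20.8% in PG and 21.8% in skin *Cd207*-negative cells, and 215 genes were higher and 315 lower in PG after subtracting it, against 209 and 265 without predicted doublets. Leaving out every member with at least 100 UMIs per 10000 of keratinocyte, sebocyte and fibroblast genes together left 182 skin and 177 PG members, 201 genes higher and 248 lower in PG.

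Set against all other cells of their library, as a description of what the choice of cells brought in, skin members stood out by *Ccl12*, *Clec4b1*, *Fcrls*, *Lyz1* and *Retnla*, the last at 2956 CPM against 9.65 CPM. PG members stood out by *H2-M2* with 107 UMIs against 1 in the 4508 other cells, *Aif1*, *Ifnb1*, *Itgax* and *Il1b*, the last at 2711 against 4.52 CPM. The 8 type 1 dendritic cell markers summed to 177 CPM in *Cd207*-positive and 213 CPM in *Cd207*-negative PG cells, against 37.0 CPM in the other PG cells, and to 40.1 and 259 CPM in skin. *Cadm1* was the most abundant in the *Cd207*-positive PG cells at 88.5 CPM, where *Xcr1* and *Clec9a* had 0 UMIs. The cell cycle list summed to 59.8 CPM in PG and 240 in skin *Cd207*-negative cells, and to 531 CPM in PG and 93.6 in skin *Cd207*-positive cells. The PG value of 531 CPM came from 19 cells with 56486 UMIs in all. Of the 8 listed genes, 2 (*Pclaf* and *Birc5*) reached 100 CPM in either *Cd207*-positive group.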

How the data were processed

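The deposited files hold UMI counts per gene and barcode for each library, which the authors made with Cell Ranger 4 against mm10 per the file headers and the labels, and no cell annotation was used. Barcodes were filtered and members chosen as described. The members and gene lists were chosen with earlier results of these data known. Counts were summed over cells and divided by the group's total (CPM), and ratios carry exact conditional binomial 95% intervals and levels exact Poisson ones, which cover counting error only. A gene without UMIs in a group was set at 3 UMIs, one with 1 or 2 was not. A gene was compared where one group reached 100 CPM, and those past 2-fold counted. No share of cells was required for these counts. Genes named by rank also needed UMIs in at least 10% of the cells of the group where they were higher. They were the 10 highest and 10 lowest ratios whose level was at least 2-fold that of the library's other cells. Rule, mitochondrial and ribosomal genes and markers of other cells were left out. Groups under 20 cells had no count of genes, except in the search for genes that pointed in opposite directions in the 2 tissues. Doublets were kept and removed in an alternative. Intervals were tested on simulated data. *Clec7a* was not analysed here. Python 3.11.15, numpy 2.4.6, scipy 1.17.1, pandas 2.3.3, scikit-learn 1.9.0 and scanpy 1.11.5 were used.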

Additional observations from a re-analysis of the deposited data

Results flagged for a closer look

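Barcodes outside the filters also met the rule for members. Among skin barcodes with at least 200 but fewer than 500 genes, 25 of 1617 did (1.55%, against 2.17% of the barcodes that passed the filters), 5 of them with *Cd207*. In PG, 78 of 962 such barcodes did (8.11%, against 4.06% of those that passed), 2 of them with *Cd207*, as did 23 of 662 PG barcodes above 10% mitochondrial UMIs (3.47%, against the same 4.06%), 0 of them with *Cd207*.

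*Cd207*-positive over *Cd207*-negative cells were compared in both tissues for the 350 genes in the lists or named by rank. For 51 of them the interval excluded 0 in both tissues, and 15 of the 51 pointed in opposite directions. In 2 of the 15 the ratio was more than 2-fold in each tissue. *Isg15*, an interferon-induced ubiquitin-like gene, had a log2 ratio of 1.41 in PG (1.01 to 1.81) and -4.53 in skin. *Tnip3*, an inhibitor of NF-kappaB signalling, had 1.08 in PG (0.32 to 1.78) and -3.19 in skin. The difference between tissues was not tested.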

How the results depend on the processing

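No paired analysis was possible because each tissue had 1 library, and no replicate could be left out. Of 158 values that answer a comparison under an alternative, 136 stayed within their limits. The share of members was 1.33% in skin and 1.79% in PG with at least 1000 genes and 2000 UMIs, 4.69% in PG with at least 200 genes and 500 UMIs, and in skin 1.80% with at least 2 *Tyrobp* UMIs and 1.84% over thinned cells. The *Cd207*-positive share was 4.19% in PG with at least 2 *Cd207* UMIs and 39.3% in skin with at least 1000 genes and 2000 UMIs. Genes higher in *Cd207*-positive skin cells numbered 610 over thinned cells, 828 after subtracting free RNA, 806 at 50 CPM and 169 at 200 CPM, and lower ones 556, 543 and 165 under the last 3 settings. Genes higher in PG numbered 330 (278 lower) when scaled without mitochondrial, ribosomal and rule genes, 106 relative to fibroblasts, 414 at 50 CPM and 119 at 200 CPM, and lower ones 161 relative to fibroblasts, 506 and 125. That scaling moved the median log2 ratio from -0.16 to -0.03. Skin gave 7 clusters at resolution 1.0. Among C1q-positive cells alone *Ear2*, a ribonuclease gene, turned to 0.70. The causes were not tested. The C1q-positive share of *Cd207*-positive PG cells was 100% under each alternative run, but those that only removed cells could not lower it. Alternatives on RNA of other types, the deepest cells and low UMI counts were chosen after seeing the data.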
